A study of Rattus norvegicus with 8 samples.

Results

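The 9 genes described here mark striatal projection neurons or carry the dopamine signal inside them: Drd1, Drd2, Ppp1r1b, Adora2a, Rgs9, Gpr6, Pde10a, Adcy5 and Foxp1. They were picked by gene symbol, with Drd1 listed under its older name Drd1a, and they stand for 9 of the 10879 genes with a symbol on the array. All 9 had complete values, on 12 probes: 4 for Adcy5 and 1 for each of the others. RNA came from the ipsilateral brain cortex of Sprague Dawley rats, 4 of them taken 24 h after tMCAO (transient occlusion of the middle cerebral artery), a stroke model in which a brain artery is blocked for a time and then reopened, and 4 of them sham-operated. Neither the length of the occlusion nor the age or sex of the animals is given in the sources used here. According to the labels, striatum was dissected away from cortex in a section 4 mm thick, and the arrays hold cortex. On each 2-colour array the animal was labelled with Cy5 and pooled RNA of sham cortex with Cy3, so a log2 ratio of 0 is the level of the pool. The dyes were not swapped, and a dye effect is common to both groups in the comparison of tMCAO with sham, but not in a comparison with the pool.

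Dopamine reaches the striatum from midbrain neurons and acts there on medium spiny neurons, the inhibitory projection cells that make up most of the striatum. The cells of the direct pathway carry the Drd1 receptor, which raises cyclic AMP, and those of the indirect pathway carry the Drd2 receptor, which lowers it, together with the adenosine receptor Adora2a and the orphan receptor Gpr6. Adcy5, an adenylyl cyclase, makes the cyclic AMP, the phosphodiesterase Pde10a breaks it down, Rgs9 speeds the switching-off of the G proteins, and Ppp1r1b is a phosphatase inhibitor that integrates the signals. Foxp1 is a transcription factor of these neurons. The neocortex holds some of these transcripts too, Foxp1 and Adcy5 among them, and the cortex lies directly above the striatum, so both tissues could contribute to a cortical dissection.

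The promoters of the 3 members with the largest estimated falls are shown because the data bear on these genes most. Each window runs from 250 bases before to 50 bases after an annotated start, in RefSeq sequence of the GRCr8 rat assembly. They lie at chr10:94770338-94770637 on the minus strand for Rgs9, chr1:54765619-54765918 on the minus strand for Pde10a (1 of its 2 annotated starts) and chr8:58605153-58605452 on the plus strand for Drd2. Capitals mark the cyclic AMP response half-site TGACG and the GC box GGGCGG, on either strand.
Rgs9 promoter: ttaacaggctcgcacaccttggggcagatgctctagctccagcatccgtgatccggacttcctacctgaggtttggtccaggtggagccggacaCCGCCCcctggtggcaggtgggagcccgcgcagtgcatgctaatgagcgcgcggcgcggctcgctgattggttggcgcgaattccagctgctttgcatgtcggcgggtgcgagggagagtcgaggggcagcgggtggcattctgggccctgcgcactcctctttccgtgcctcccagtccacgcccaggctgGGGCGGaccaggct
Pde10a promoter: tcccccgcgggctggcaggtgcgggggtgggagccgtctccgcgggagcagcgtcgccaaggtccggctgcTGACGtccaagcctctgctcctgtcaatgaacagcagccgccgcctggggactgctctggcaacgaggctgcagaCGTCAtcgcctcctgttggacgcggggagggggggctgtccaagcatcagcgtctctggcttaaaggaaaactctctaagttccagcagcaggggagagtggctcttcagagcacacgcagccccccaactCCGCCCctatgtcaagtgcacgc
Drd2 promoter: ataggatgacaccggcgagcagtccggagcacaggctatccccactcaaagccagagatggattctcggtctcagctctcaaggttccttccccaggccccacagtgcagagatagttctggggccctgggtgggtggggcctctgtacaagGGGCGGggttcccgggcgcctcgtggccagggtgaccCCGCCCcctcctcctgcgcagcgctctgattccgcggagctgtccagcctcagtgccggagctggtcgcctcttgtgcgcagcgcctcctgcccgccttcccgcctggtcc
A promoter entry was matched for 7 of the 9 genes (all except Adora2a and Ppp1r1b), in 8 windows. The half-site TGACG occurred in a window of 2 of the 7 genes, Pde10a and Gpr6, and in 21.2% of all 33469 rat windows of the same length. The full element TGACGTCA, which contains the half-site, was found for Gpr6 (1.83% of all windows). The GC box was found for 4 of the 7 genes, Rgs9, Pde10a, Drd2 and Adcy5 (33.1% of all windows), and the forkhead motif TGTTTAC for 1, Foxp1 itself (3.78%). These matches describe letters in the windows and are not binding sites.

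Set against sham cortex, most of the 9 genes were lower after the occlusion. Of the 9 genes, 7 fell (limma, adjusted p under 0.05), none rose, and Adora2a and Gpr6 were not called. Over all 17928 features tested, 16.0% were called lower and 15.0% higher, 31.0% in all. The median log2 difference of the 9 genes was -0.71, against -0.05 over all features. All 4 tMCAO animals lay below all 4 sham animals in 8 of the 9 genes, as they did in 16.2% of all features. By size the 7 falls ran from Rgs9 through Pde10a, Drd2, Ppp1r1b, Foxp1 and Adcy5 to Drd1, and the 95% confidence intervals of each neighbouring pair in this order overlapped. With quantile-normalized ratios 4 of the 7 were still called, at smaller log2 differences of -0.77 for Pde10a, -0.48 for Foxp1, -0.37 for Adcy5 and -0.36 for Ppp1r1b. Over all 17928 features that fit called 2964, of which 1538 were higher. Whether the tissue held fewer of the cells or each cell held less of the RNA cannot be told apart in these bulk samples.

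**Figure D1:**
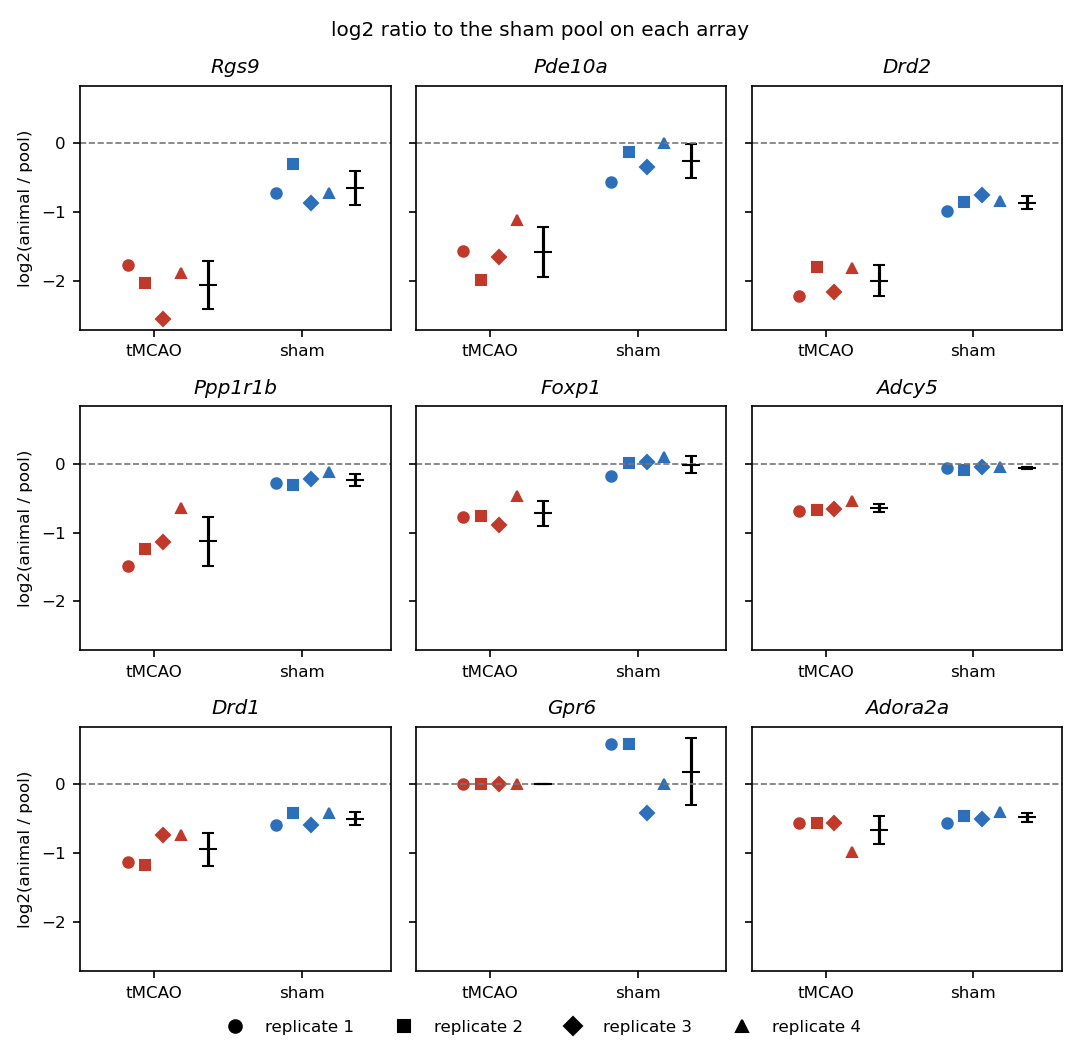
Each panel plots the log2 ratio of the animal to the sham pool (y axis) for 1 gene, with 4 tMCAO arrays at the left and 4 sham arrays at the right. Marker shapes give the replicate, the black bar the mean ± SD (n = 4), and the dashed line the pool. Rgs9, Pde10a and Drd2 had the largest falls, and Drd2 lay below the pool in every sham animal.

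Both dopamine receptors fell, with different patterns. The log2 ratios of Drd2 to the pool were -2.23, -1.80, -2.17 and -1.81 in the 4 tMCAO animals, against -0.99, -0.86, -0.76 and -0.84 in the 4 sham animals. The 2 groups were far apart, and none of the animals of either group reached the pool. Drd2 was 2.20-fold lower in tMCAO than in sham cortex (log2 difference -1.14 ± 0.12, SE, 4 animals per group, limma adjusted p = 0.00188). The call was lost with quantile-normalized ratios (log2 difference -0.23, adjusted p = 0.431) and with trend and robust variances (adjusted p = 0.133). The Cy5 signal of Drd2 was 0.435 ± 0.0695 in tMCAO and 0.773 ± 0.045 in sham animals (SD, n = 4 each, on the authors' scale).

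The log2 ratios of Drd1 were -1.14, -1.17, -0.74 and -0.74 in tMCAO animals, against -0.59, -0.42, -0.59 and -0.42 in sham animals. Drd1 was called lower by the ratio (1.36-fold, log2 difference -0.45 ± 0.13, adjusted p = 0.0293). This call was fragile. The Cy5 signal itself was 0.05, 0.04, 0.06 and 0.06 in tMCAO animals, against 0.06 in all 4 sham animals, a few rounding steps of 0.01 in which the groups overlapped. The pool signal was higher on the tMCAO arrays (0.09 to 0.11) than on the sham arrays (0.08 to 0.09). Within rounding the log2 difference of Drd1 was -0.87 to -0.03. On the Cy5 signal alone, quantile-normalized across arrays and so not the deposited values above, it was -0.10 (limma adjusted p = 0.47). The call by the ratio was lost without any 1 of the 4 sham animals, tMCAO replicate 1 or tMCAO replicate 2 (adjusted p = 0.0544 to 0.0771).

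Of the receptors that share the indirect pathway with Drd2, neither was called. Adora2a had log2 ratios of -0.57, -0.56, -0.57 and -0.98 in tMCAO animals, against -0.56, -0.46, -0.50 and -0.40 in sham animals. Its groups were separated by less than a rounding step, since the highest tMCAO value was -0.558 and the lowest sham value -0.555. The log2 difference was -0.19 ± 0.11 (95% confidence interval -0.44 to 0.06, limma adjusted p = 0.223). The Cy5 signals overlapped, at 0.69 to 1.02 in tMCAO and 0.81 to 0.99 in sham animals. Gpr6 had a Cy5 signal of 0.02, 0.02, 0.02 and 0.03 in tMCAO animals and 0.03, 0.03, 0.03 and 0.02 in sham animals, at the bottom of the scale. Its difference could not be resolved at this signal (log2 difference -0.19 ± 0.21, and -1.47 to 1.07 within rounding).

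Within the arrays, the log2 ratio of Drd2 minus that of Adora2a was -1.33 ± 0.38 in tMCAO and -0.38 ± 0.08 in sham animals (SD, n = 4 each). This pair was chosen after the values had been seen, and the difference is given as a description with no test.

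Downstream of the receptors, the G protein regulator Rgs9 had the largest estimated fall of the 9. Pde10a came first in some alternatives, with a log2 difference of -1.49 against -1.46 for Rgs9 without tMCAO replicate 4. The log2 ratios of Rgs9 were -1.77, -2.03, -2.56 and -1.89 in tMCAO animals, against -0.72, -0.30, -0.87 and -0.73 in sham animals. Rgs9 was 2.65-fold lower in tMCAO cortex (log2 difference -1.41 ± 0.19, adjusted p = 0.00338). The call was lost with quantile-normalized ratios (log2 difference -0.54, adjusted p = 0.235) and with trend and robust variances (adjusted p = 0.0601). The Cy5 signal was 0.09 to 0.15 in tMCAO and 0.24 to 0.35 in sham animals, while the pool gave 0.49 to 0.53 on the tMCAO arrays and 0.43 to 0.48 on the sham arrays. The groups were separated by more in the channel of the animals than in that of the pool. The pool signal, quantile-normalized across arrays, was higher by 0.11 on the log2 scale on the tMCAO arrays (limma adjusted p = 0.083).

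Pde10a, which breaks down cyclic AMP, and Ppp1r1b, which acts below it, both fell. For Pde10a the log2 ratios were -1.57, -1.99, -1.66 and -1.11 in tMCAO animals, against -0.56, -0.12, -0.34 and 0.01 in sham animals. Pde10a was 2.51-fold lower in tMCAO than in sham cortex (log2 difference -1.33 ± 0.19, adjusted p = 0.004). Its Cy5 signal, 0.94 to 1.86 in tMCAO and 2.42 to 3.52 in sham animals, lay well above the rounding step, and the authors' deposited table gave it a p of at most 1.35e-09 against the pool on each tMCAO array. Ppp1r1b, the phosphatase inhibitor, had log2 ratios of -1.50, -1.24, -1.14 and -0.64 in tMCAO animals, against -0.28, -0.30, -0.23 and -0.12 in sham animals. It was 1.86-fold lower (log2 difference -0.90 ± 0.17, adjusted p = 0.00731), and replicate 4 of tMCAO stood nearest to the sham animals.

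Adcy5, averaged over its 4 probes, fell in tMCAO cortex (log2 difference -0.58 ± 0.07, adjusted p = 0.00247), but its probes disagreed. The brightest probe in sham animals (Cy5 mean 1.88, probe A) had log2 ratios of -1.57, -1.48, -1.20 and -0.84 in tMCAO animals, against -0.16, -0.20, -0.21 and -0.30 in sham animals. Fitted on its own it fell by 1.06 on the log2 scale (adjusted p = 0.00395 over all 23376 probes, of which 15.1% were called lower). Probe B, which the table assigns to a RefSeq transcript of Adcy5 (sham Cy5 mean 1.82), fell by 0.78 (adjusted p = 0.00265), and the dim probe D (sham Cy5 mean 0.158) by 0.70 (adjusted p = 0.00417). Probe C (sham Cy5 mean 0.24) had log2 ratios of 0.43, 0.06, 0.11 and -0.06 in tMCAO animals, against -0.06, -0.12, -0.07 and -0.05 in sham animals. It was not called (log2 difference 0.21 ± 0.11, adjusted p = 0.179). The averaged value lies between those of the probes, and which exons or transcripts the probes cover was not tested.

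**Figure D2:**
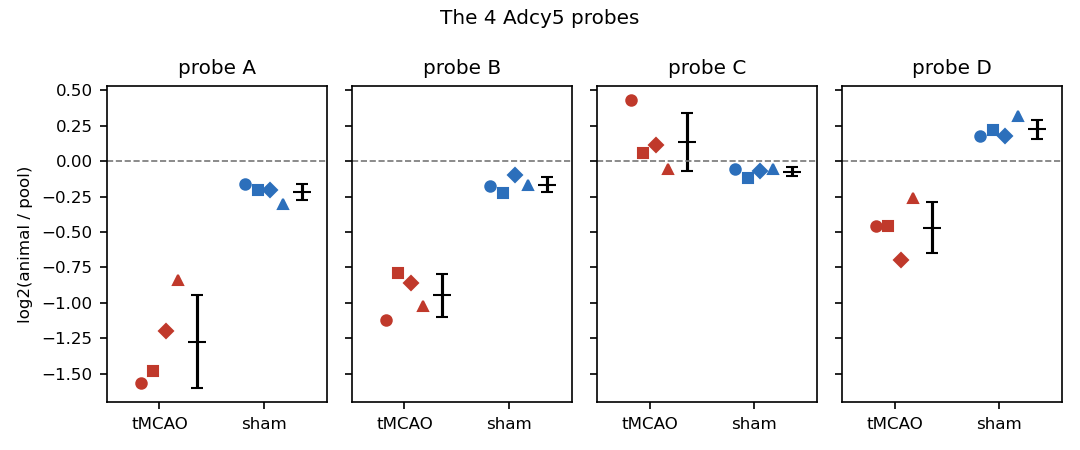
The log2 ratio to the sham pool (y axis) is plotted for the 4 Adcy5 probes, ordered by their sham Cy5 signal, with tMCAO arrays left and sham arrays right in each panel. Bars are mean ± SD (n = 4). Probes A, B and D lay lower in all 4 tMCAO animals than in all 4 sham animals, and probe C did not.

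Foxp1, the transcription factor, had log2 ratios of -0.77, -0.76, -0.89 and -0.47 in tMCAO animals, against -0.18, 0.02, 0.03 and 0.10 in sham animals. It was 1.64-fold lower by the ratio (log2 difference -0.71 ± 0.11, adjusted p = 0.00439). Both channels differed. The Cy5 signal was 2.34, 2.47, 2.11 and 2.68 in tMCAO animals, against 2.72, 2.81, 2.73 and 3.39 in sham animals. The Cy3 signal of the common pool was 3.98, 4.19, 3.90 and 3.72 on the tMCAO arrays, against 3.08, 2.78, 2.67 and 3.17 on the sham arrays. In these deposited values the Cy5 means were 2.40 in tMCAO and 2.913 in sham animals. The Cy3 means were 3.948 on the tMCAO and 2.925 on the sham arrays, a wider gap. On the Cy5 signal alone, quantile-normalized across arrays, Foxp1 fell by 0.37 on the log2 scale (limma adjusted p = 0.0343). The pool signal, normalized likewise, was higher by 0.36 ± 0.07 on the tMCAO arrays (limma adjusted p = 0.00961).

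Every array carried the same kind of pool. The Cy3 channel was quantile-normalized across arrays, unlike the ratios, and then fitted with the same model. There, tMCAO arrays were called higher than sham arrays in 17.6% of all features and lower in 12.1%. Of the 9 genes, Foxp1, Drd1 (log2 difference 0.27 ± 0.07, adjusted p = 0.0269) and Drd2 (0.22 ± 0.03, adjusted p = 0.0059) had a higher pool signal on the tMCAO arrays, and the other 6 were not called. The labels give no hybridisation day, and a batch of the arrays and the group cannot be told apart. With the Cy5 signal alone, also quantile-normalized, 6 of the 9 genes fell, all of the 7 except Drd1. Over all 17928 features this fit called 5747, of which 2846 were higher. The log2 difference was then -1.26 for Rgs9, -1.19 for Pde10a, -0.94 for Drd2, -0.88 for Ppp1r1b and -0.72 for Adcy5.

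**Figure D3:**
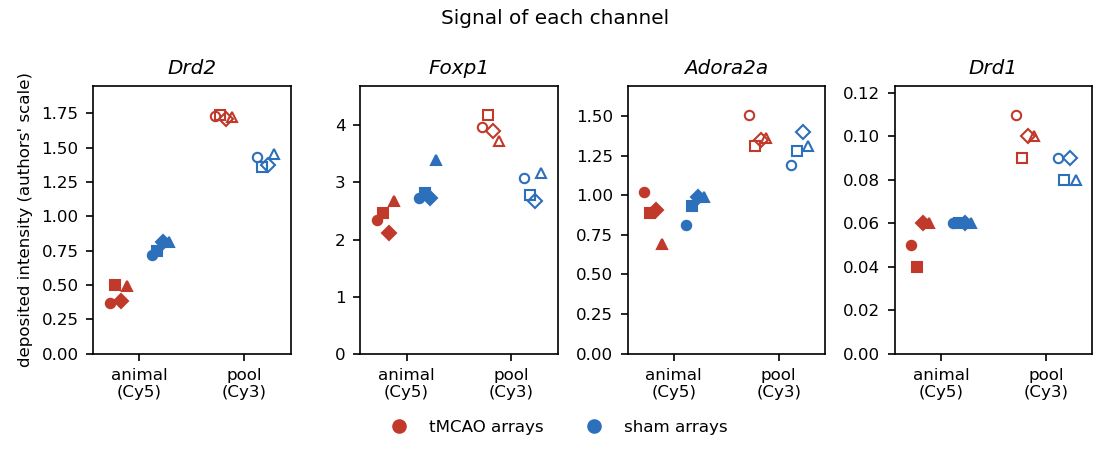
Deposited intensity (y axis, the authors' scale, from 0) of the animal channel (Cy5, filled) and the pool channel (Cy3, open) is plotted on each array for 4 genes, with tMCAO arrays left of sham arrays in each channel and the same marker shapes for replicates 1 to 4 as above. The groups were separated in both channels for Drd2 and Foxp1 and in neither for Adora2a and Drd1, whose animal signals met at 0.06 for Drd1.

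Against the pool, 8 of the 9 genes were lower in tMCAO animals, all except Gpr6 (26.3% of all features were called lower than the pool). Rgs9 lay at -2.06 ± 0.13 (log2 ratio, SE), and the 95% confidence interval of Drd2 was -2.20 to -1.81. They had ranks 12 and 17 from the lowest of 17928 features. The log2 ratios to the pool were -1.58 for Pde10a, -1.13 for Ppp1r1b, -0.95 for Drd1, -0.72 for Foxp1, -0.67 for Adora2a and -0.64 for Adcy5. This comparison shares the tMCAO arrays with the one against sham, and the pool is itself of sham cortex.

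The sham animals gave a background measured in the same way, and several of the 9 genes lay below the pool there too. The labels do not say whether the pool was made from these 4 sham animals, and without a dye swap an offset between the dyes and a difference from the pool cannot be told apart. Drd2 was called lower than the pool in sham animals (log2 ratio -0.86 ± 0.09, SE, limma adjusted p = 0.0306), which held for 3 features in all, or 0.0167% of those tested. The other 2 were Pop5, a subunit of ribonuclease P, and the cyclic nucleotide-gated channel Cnga2. The call did not hold without any 1 of the sham animals or without tMCAO replicate 3. Rgs9 (-0.65 ± 0.13, adjusted p = 0.184), Drd1 (-0.50 ± 0.09, adjusted p = 0.145) and Adora2a (-0.48 ± 0.08, adjusted p = 0.145) were not called after the adjustment, although all 4 sham animals lay below the pool in each of them. By rank from the lowest of 17928, Drd2 stood 5, Rgs9 25, Drd1 60 and Adora2a 74. In the authors' deposited table the p of Drd2 against the pool was 4e-22 to 4.13e-16 for tMCAO animals and 8.13e-08 to 3.13e-05 for sham animals. Foxp1 (-0.01 ± 0.08) and the average of the Adcy5 probes (-0.06 ± 0.05) were not called in sham animals, with values near that of the pool. The Adcy5 average joined probes of opposite sign, at -0.22 for probe A, -0.17 for B, -0.07 for C and 0.23 for D. None of these probes was called on its own in sham animals.

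**Figure D4:**
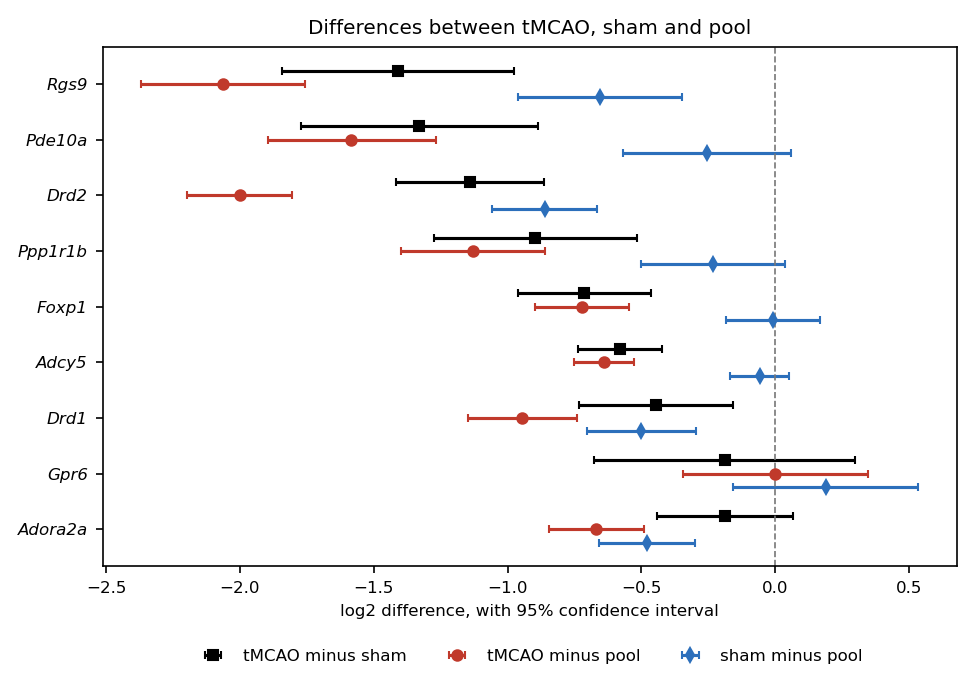
Points are the estimated log2 differences of the 9 genes (x axis) with 95% confidence intervals from the fit over all features, for tMCAO minus sham (squares), tMCAO minus pool (circles) and sham minus pool (diamonds). For Adora2a the 2 comparisons with the pool are -0.67 and -0.48, close to each other. Foxp1 and the average of the Adcy5 probes were called lower than the pool in tMCAO animals and not in sham animals.

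Replicate 4 of tMCAO, whose log2 ratios had the smallest SD of the 4 tMCAO arrays (0.368, against 0.615 to 0.741 on the others and 0.231 to 0.259 on the sham arrays), did not stand apart in the same way for all members. Its distance from the sham mean was compared with that of the mean of tMCAO replicates 1 to 3. Over the 2867 features called lower, replicate 4 reached a median of 44.6% of that distance (quartiles 26.5% and 72.5%). It reached 84.6% for Rgs9, 79.7% for Adcy5 and 79.0% for Drd2, above the upper quartile. It reached 58.3% for Foxp1, 57.8% for Pde10a, 46.0% for Drd1 and 38.7% for Ppp1r1b. These shares describe 1 animal and have no test. The Adcy5 share is for the average of its probes, which differed. On probe B replicate 4 had a log2 ratio of -1.02, within the range of the other tMCAO animals (-1.12 to -0.79). On probe A it had -0.84, against -1.57 to -1.20 in the others, and on probe D -0.26, against -0.70 to -0.46. Probe C, not called, had -0.06, against 0.06 to 0.43. Without replicate 4 the same 7 genes were called lower.

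Deviations from the group means did not follow 1 common pattern. Over the 8 arrays, the correlation of these deviations between the 8 members other than Gpr6 had a median of 0.328 over 28 pairs, with a range from -0.93 to 0.931, and was above 0 in 19 pairs. The genes with log2 ratios most like the mean profile of the 9 were C2cd5 (Pearson r = 0.994 over 8 arrays), Acad9, Myorg, Fdps (all 0.991) and the metabotropic glutamate receptor gene Grm3 (0.99). Such values mostly repeat the split between the groups. For the deviations from the group means, the closest genes were Atp5pf (0.981), Fbxl12 (0.976), Mbtps1 (0.972), Gaa and Ppp1r21 (both 0.971). The points share arrays and pool, and the values are a description.

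Other genes of striatal projection neurons also fell in part. Of 26 measured genes of this list, none of them members, 10 fell, 1 rose and 15 were not called, with a median log2 difference of -0.31. The kappa opioid receptor Oprk1 was 3.34-fold lower (log2 difference -1.74 ± 0.46, adjusted p = 0.0225), the sodium channel subunit Scn4b 2.94-fold and the small G protein Rasd2 2.70-fold. Ebf1 was higher (1.80-fold, adjusted p = 0.0295), in 3 of the 4 tMCAO animals above all sham animals. The neuropeptide gene Tac1 was not called, with log2 ratios of 1.07, 1.66, 1.08 and -0.73 in tMCAO animals, against -0.54, -0.03, -0.28 and -0.43 in sham animals. The phosphatase gene Ptpn5 was not called either (log2 difference -0.32, adjusted p = 0.0586). Without tMCAO replicate 4, 11 genes of the list fell and 2 rose.

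In sham animals, 19 of these 26 genes lay below the pool (73.1%, against 8971 of 17928 features in all), and none was called. The median log2 ratio of the list was -0.60 to -0.32 in the 4 tMCAO animals and -0.14 to -0.04 in the 4 sham animals. The summed Cy5 signal of the list was 27.9 to 42.2 in tMCAO and 51.6 to 52.6 in sham animals. The part of striatal tissue in the samples in the values of the 9 genes was not tested.

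Of 16 measured genes of dopamine receptors and their G proteins, 7 fell (Drd1 and Drd2 among them) and 1 rose. The G protein subunit Gng7 was 2.62-fold lower (log2 difference -1.39 ± 0.19, adjusted p = 0.00352) and Caly, which encodes a vesicle protein that binds dopamine receptors, 2.41-fold lower (adjusted p = 0.00404). Drd5 was 1.56-fold lower (adjusted p = 0.0203) at a Cy5 mean of 0.0325 in tMCAO and 0.05 in sham animals, near the rounding step. Drd3 (log2 difference 0.03, adjusted p = 0.827) and Drd4 (0.79, adjusted p = 0.0527) were not called. The inhibitory G protein subunit Gnai3 was 1.68-fold higher (adjusted p = 0.00426). Without tMCAO replicate 4, 9 genes of this list fell and 4 rose. Of 15 genes of dopamine synthesis, transport and breakdown, 3 fell and 3 rose. The 20.0% that fell is near the share over all features, of which 16.0% were called lower and 15.0% higher. Among the falls was Dbh (adjusted p = 0.0207), at a Cy5 mean of 0.0225 in tMCAO and 0.04 in sham animals, near the rounding step. The nuclear receptor Nr4a2, a factor of midbrain dopamine neurons that is also induced by activity, was 2.90-fold lower. Gch1, of cofactor synthesis, was 1.86-fold, the tyrosine hydroxylase Th 1.42-fold and the monoamine oxidase Maoa 1.39-fold higher.

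Of 35 measured genes of cyclic AMP and protein phosphatase signalling, 16 fell (3 of them members) and 4 rose. The calcineurin subunit Ppp3ca was 2.57-fold and the phosphodiesterase Pde4a 2.06-fold lower. The 4 that rose were the phosphodiesterase Pde4d (2.12-fold), the kinase subunit Csnk2a1 (1.69-fold), the transcription factor Creb1 (1.67-fold) and the adenylyl cyclase Adcy3 (1.24-fold). Of 14 regulators of G protein signalling and their partners, 10 fell and 2 rose. Rgs4 was 2.13-fold lower, the Rgs9 partner Gnb5 1.82-fold lower and Rgs16 2.26-fold higher. Both measured FOXP factors fell, with Foxp4 1.31-fold lower (adjusted p = 0.0114).

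Of 11 genes of adenosine receptors and handling, 2 fell and 3 rose, and none of the receptors was called. The 18.2% that fell is near the share over all features, of which 16.0% were called lower and 15.0% higher. The log2 differences were -0.15 for Adora1, -0.14 for Adora2b and 0.30 for Adora3. The adenosine deaminase Ada was 4.43-fold and the adenosine-forming nucleotidase Nt5e 2.07-fold higher, while the adenosine kinase Adk was 1.95-fold lower. All 10 measured genes of neurons in general fell, with Uchl1, a ubiquitin hydrolase, 2.74-fold lower (9 of the 10 without tMCAO replicate 4). In the list of cortical projection neurons, 10 of 13 fell and none rose, with the postsynaptic Nrgn 4.48-fold lower. Of 11 genes of GABA neurons 6 fell and none rose, with Pvalb 2.93-fold lower and the GABA-synthesizing Gad1 not called (log2 difference -0.16, adjusted p = 0.236). Without tMCAO replicate 4, 5 genes of the GABA list fell and 1 rose.

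Of the 17 listed genes of cortical projection neurons, 13 were measured. Neurod2, a transcription factor of cortical excitatory neurons, had a mean Cy5 signal of 3.46 in tMCAO and 7.02 in sham animals, while the upper-layer marker Cux2 gave 0.0425 in tMCAO and 0.0375 in sham animals, near the rounding step. Signals of different probes are not comparable, so they do not rank the markers. Of 12 genes of microglia and macrophages 9 rose and none fell, and their summed Cy5 signal was 19.2 to 38.8 in tMCAO and 13.3 to 13.8 in sham animals. Of 6 astrocyte genes Gfap rose and 2 fell (3 without tMCAO replicate 4), with a median log2 difference of -0.38. Their summed signals were 23.8 to 28.3 in tMCAO and 15.4 to 24.2 in sham animals, and most of the sum was Gfap (mean 21.9 in tMCAO and 14.9 in sham animals). None of 9 oligodendrocyte genes was called, with sums of 22.3 to 39.9 in tMCAO and 26.3 to 32.3 in sham animals (1 rose without tMCAO replicate 4). The sums of the neuron list were 31.4 to 47.1 in tMCAO and 59.7 to 67.0 in sham animals. The sums of the microglia and neuron lists did not overlap between the groups, and those of the astrocyte and oligodendrocyte lists did. The part of these cell types in the falls of the 9 genes was not tested.

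**Figure D5:**
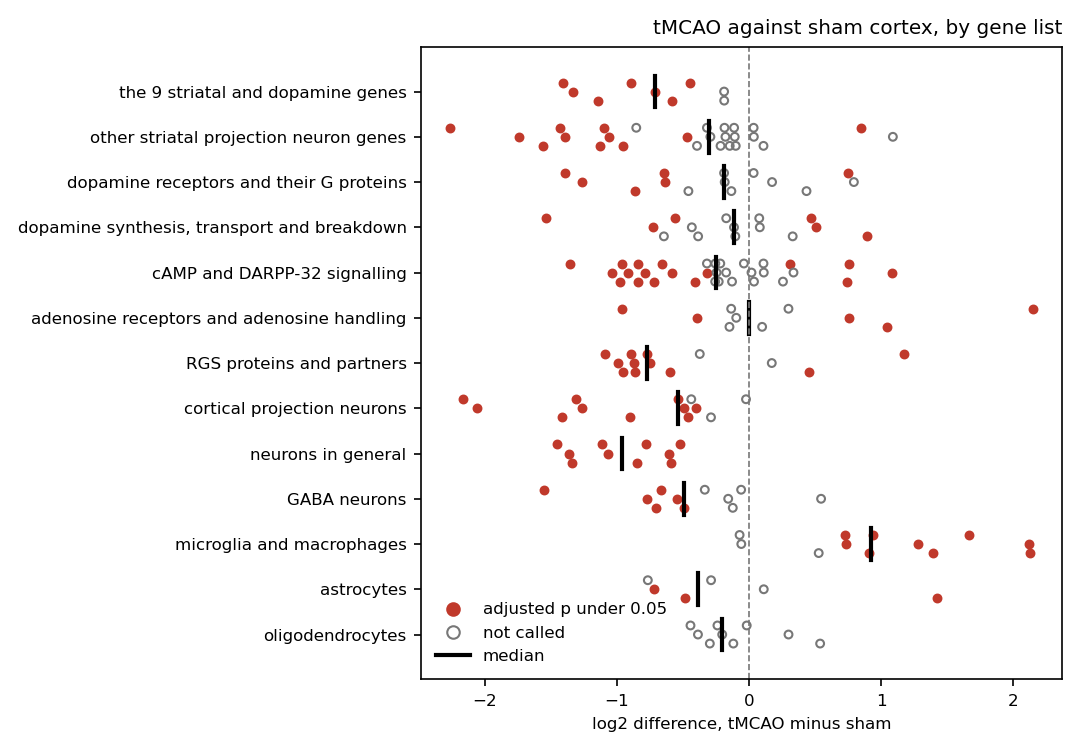
Each point is the log2 difference (x axis, tMCAO minus sham) of 1 gene, for the 9 genes and for 12 other lists without them. Filled points passed an adjusted p of 0.05, open points did not, and the black line is the median of the list. The 9 genes have a median of -0.71, between the medians of the cortical projection neuron list (-0.54) and the list of neurons in general (-0.96).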

How the data were processed

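Values come from 8 two-colour Agilent arrays. Per the labels, 100 ng of total RNA was amplified in 2 rounds, after 30 min of DNase during extraction, and per the submitters' processing notes Agilent Feature Extraction 8.5.1.1 was used. The deposited table gives, for 23609 probes, a normalized intensity per channel and a p-value per array by the authors. The scaling and the error model behind them are not given in the sources used here. The authors' deposited log10 ratios lay within 0.005 of those computed from the intensities for 100% of values.

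Intensities were rounded to 0.01. Of the probes, 23376 were complete. Symbols were updated with RefSeq (GRCr8). Probes of a symbol were averaged, giving 17928 features. log2(Cy5/Cy3) was fitted with limma 3.58.1 in R 4.3.3 (a mean per group, eBayes, 2-sided) with Benjamini-Hochberg adjustment over all features. For fits of the Cy5 or the Cy3 signal alone, log2 intensities were first quantile-normalized across arrays. Such differences therefore need not equal those of the deposited intensities. The pipeline was tested on simulated data. The number of arrays limits the precision. The members and the 13 gene lists were chosen with earlier results of these data known. All 9 members are named. Of each list up to 4 called genes by size and up to 2 not called by signal may be named, and any dopamine or adenosine receptor or FOXP gene, besides the 5 genes most like the members by each of 2 correlations. Ebf1, Gnai3, Th, Maoa, Csnk2a1, Creb1, Adcy3, Neurod2, Cux2, Pop5 and Cnga2 fall outside this rule and were chosen after their values were seen. Replicate numbers are given for both groups, but the labels do not tie them to shared animals or days.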

Additional observations from a re-analysis of the deposited data

Results flagged for a closer look

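In the tMCAO group, replicate 4 stood apart from the other 3 animals in 2 of the 8 genes whose 4 tMCAO values were not all equal, 1 in each direction. With the sham values, 17 sets of 4 were examined. For Adora2a its log2 ratio was -0.98, against -0.57 to -0.56 in the others. For the average of the Adcy5 probes it was -0.55, against -0.68 to -0.66. The single probes were less alike: replicate 4 had -0.84 against -1.57 to -1.20 on probe A. On probe B it had -1.02, inside the range of the others (-1.12 to -0.79). Chance marks about 1 in 20 such sets.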

How the results depend on the processing

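The count of 7 falls was also 7 with array weights and with the brightest probe per symbol. Median centring changed nothing, since the median ratio of every array was already 0. The count was 6 at an adjusted p under 0.01, with the Cy5 signal alone and without the dimmest 25% of features (which removed Drd1 and Gpr6), and 6 to 7 without any 1 array. It was 4 with quantile-normalized ratios and 4 with an intensity trend and robust variances. Quantile normalization, which gives every array the same spread, left Rgs9 (-0.54) and Drd2 (-0.23) below the threshold and turned Drd1 (0.15) and Adora2a (0.28, adjusted p = 0.354). On this scale ranks matter: Drd2 lay among the lowest 0.04 to 0.84% of features on the tMCAO arrays and among the lowest 0.32 to 0.62% on the sham arrays. The trend and robust fit lost Drd1, Drd2 (adjusted p = 0.133) and Rgs9 (0.0601); the cause was not tested. The count of members below the pool in sham animals, 1 here and 4 at an unadjusted p under 0.05 in limma, was 0 at an adjusted p under 0.01, 4 with array weights, 5 with quantile normalization, 0 with trend and robust variances and 0 to 2 without any 1 array. The count in tMCAO animals stayed at 7 to 8. For these 2 comparisons with the pool, the share of all features was computed for the main fit only. It was 0.0167% lower in sham animals and 26.3% lower in tMCAO animals, so the counts of the alternatives have no background. For tMCAO against sham, all features called numbered 5552, against 1950 at an adjusted p under 0.01, 8699 with array weights, 2964 with quantile normalization and 3512 to 8224 without any 1 array. They numbered 5747 with the Cy5 signal alone (2846 higher) and 5794 with trend and robust variances (2750 higher). With the brightest probe they numbered 5638 (2825 higher), and without the dimmest 25% 5477 of 13446 (2542 higher). With the replicate number as a block, 6 members and 3982 features were called, and Drd1 was lost (adjusted p = 0.0569). Correlations of same-numbered deviations were -0.046 to 0.042. Pairs with little in common would give such values too, so they do not settle whether the numbers pair the animals. The list counts without tMCAO replicate 4, an alternative chosen after seeing the data, stand beside 6 of the lists. In the others, the counts lower and higher were 4 and 3 for dopamine synthesis, 19 and 5 for cyclic AMP, 2 and 4 for adenosine, 11 and 2 for RGS, 2 and 0 for FOXP, 11 and 0 for cortical projection neurons and 0 and 10 for microglia. Signals near 0.01 limit Gpr6, Drd1, Drd5, Dbh and Creb1.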
